A study of Sus scrofa with 13 samples.

Results

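The p53 targets and apoptosis regulators described here are 10 genes chosen by name from the count table of pig liver, CDKN1A, MDM2, GADD45A, GADD45B, BBC3, PMAIP1, BAX, FAS, MCL1 and BCL2L1. Each symbol matched 1 row of the 35670 genes in the table, and all 10 were among the 16481 genes that passed the filter on low counts. Of these 10 genes, 4 act in growth arrest and p53 feedback (CDKN1A, MDM2, GADD45A, GADD45B), 4 promote apoptosis (BBC3, PMAIP1, BAX, FAS) and 2 restrain it (MCL1, BCL2L1).

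The transcription factor p53 is stabilized when a cell meets DNA damage, oxidative stress or loss of oxygen, and it then switches on genes that stop the cell cycle, genes that start cell death and the gene for its own inhibitor. The mitochondrial route of apoptosis is set by the BCL2 family, in which BH3-only proteins bind and neutralize the protective members until BAX can open the outer membrane. The death receptor route starts at the cell surface with receptors such as FAS, to which hepatocytes are known to be sensitive. Ischemia followed by reperfusion is a classical setting for both routes in the liver.

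The 13 libraries are bulk RNA of liver biopsies from female Yorkshire pigs under general anesthesia with an open abdomen. Baseline is represented by 2 libraries (1a and 2) taken before any ischemia, and the ischemic controls by 3 livers given no cells and sampled 6 h after the end of 45 min of total vascular exclusion. Another 4 livers in the arterial and 4 in the portal infusion group were clamped and reperfused for the same times and, once the clamps were off, were given cultured human BM-MSCs (stromal cells grown from bone marrow) into the hepatic artery or into the portal vein, at a dose of 3 M per kg with M for mega. No group analysed here was kept for 6 h without ischemia, so that ischemia, surgery, anesthesia and time cannot be told apart in a comparison with baseline, and although the study's methods describe biopsies before clamping and again at 6 h, which animals gave the 2 baseline libraries is not given in the sources used here. Libraries are also called livers below, although a baseline and a 6 h library may come from the same animal. The main and the exact tests treat all libraries as independent.

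Total counts lay between 18975413 and 35949178 per library (median 30260803). All 8 hepatocyte markers (ALB, TTR and others) were above 0 in every library. The share of tested genes at 0 reads was 20.8% in portal 1, 16.2% in portal 4, 11.7% in arterial 1, 9.19% in arterial 2 and 7.40% in control 2, and between 1.78% and 3.99% in the other 8, and results are also given without portal 1 and portal 4. A set of control 2, arterial 1, portal 1 and portal 4 was also left out, as libraries that stood apart in an earlier look at these data and not by the share at 0 alone, which is larger in arterial 2 than in control 2. Leaving out the 4 libraries with the largest such share, with arterial 2 in place of control 2, was added for this reason, and both sets were chosen after the data were seen. Values below are normalized counts, which are read counts divided by the size factor of the library. They are compared for 1 gene across livers and never between genes, since a longer transcript gives more reads, and in bulk tissue fewer cells of a type and less RNA per cell cannot be told apart.

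None of the 10 genes passed the threshold in any of the 6 comparisons (edgeR's quasi-likelihood test, Benjamini-Hochberg adjusted p under 0.05), and neither did any other gene, the share called being 0.0% in each comparison. In the ischemic controls 8 of the 10 genes had a higher and 2 a lower fitted level than at baseline, where 50.2% of all genes tested were higher. None of the 10 had an unadjusted p under 0.05, against 4.37% of all genes tested. Between all 11 livers at 6 h and baseline 7 were higher and 3 lower, with 49.5% of all genes higher. Of the 10 genes 1, PMAIP1, had an unadjusted p under 0.05, against 4.78% of all genes. Without control 2, arterial 1, portal 1 and portal 4 both divisions were 7 and 3, with an unadjusted p under 0.05 for 1 of the 10 genes in the controls, against 1724 of the 15544 genes tested in that fit, and for 2 over all livers at 6 h, against 1584. Between the 8 infused livers and the controls the genes divided 5 and 5 (47.9% of all genes were higher), and without portal 1 and portal 4 into 6 higher and 4 lower. In edgeR's test no member had an unadjusted p under 0.05 in that comparison (2.14% of all genes), in arterial infusion against controls (1.57%), in portal infusion against controls (2.79%) or in arterial against portal infusion (2.4%). Each route against controls had 4 genes higher and 6 lower, and portal infusion 6 higher and 4 lower without portal 1 and portal 4. Of all genes 50.8% were higher after arterial and 48.1% after portal infusion. The comparison of the routes had 6 genes higher and 4 lower after arterial infusion (52.9% of all genes were higher), but 1 higher and 9 lower once portal 1 and portal 4 were left out. For fits with libraries left out the share of all genes in each direction is not given here, so those divisions have no background to be read against. The 6 comparisons share libraries, so their counts are not independent of each other. DESeq2 over all 13 libraries called 5 genes between controls and baseline, 14 between all livers at 6 h and baseline, 1 between infused livers and controls, 0 for arterial and 4 for portal infusion against controls, and 1 between the routes, and no member was among them. Its unadjusted p was under 0.05 for PMAIP1 and BAX in both comparisons with baseline (4.67% of all genes for controls, 5.68% for all livers at 6 h). It was also under 0.05 for BBC3 in infused (2.67%) and arterial livers (2.03%) against controls.

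**Figure D1:**
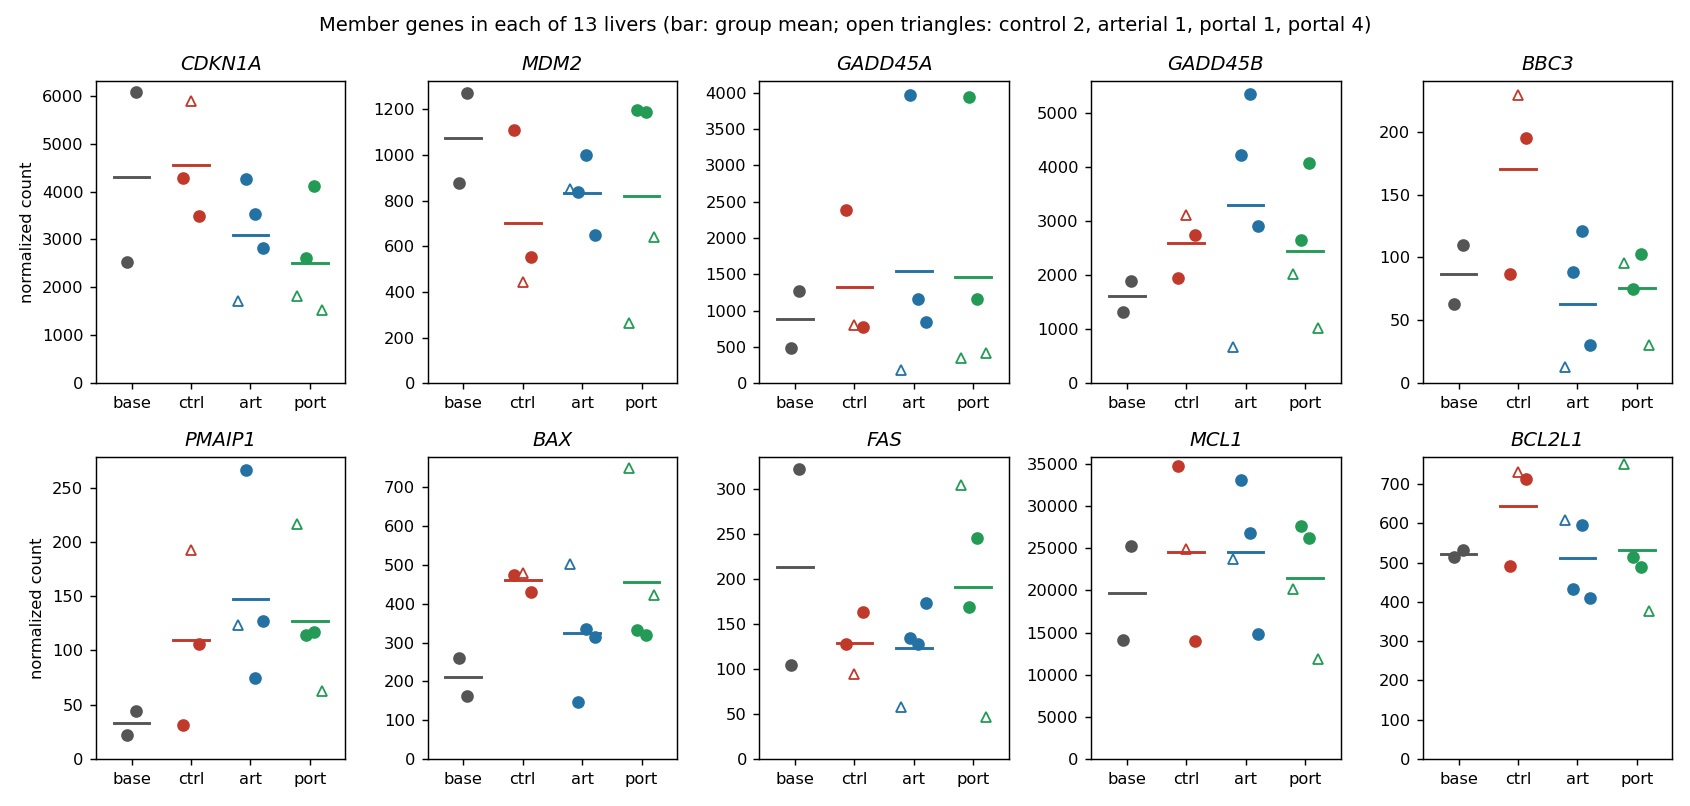
Normalized read count of each of the 10 genes (y axis, linear from 0, its own scale in each panel) in the 13 libraries by group (x axis: baseline, ischemic control, arterial and portal infusion). Each point is 1 library, bars are group means and open triangles mark control 2, arterial 1, portal 1 and portal 4. Both baseline libraries lie below the 3 controls for BAX and GADD45B, while in the other 8 panels these groups overlap.

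CDKN1A encodes p21, the cyclin-dependent kinase inhibitor through which p53 halts the cell cycle, and lies at 7:32354776-32363771 (positions throughout are on Sscrofa11.1, taken from RefSeq by symbol). Its normalized count was 2526 in baseline 1a and 6077 in baseline 2, and 4278, 5880.2 and 3497 in controls 1 to 3. After arterial infusion it was 1713, 4265, 3535 and 2821 in livers 1 to 4, and after portal infusion 1809.8, 2606, 4111 and 1527. The baseline livers therefore enclosed all 3 controls, and the lowest 3 of the 13 values belonged to portal 4, arterial 1 and portal 1.

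Means of CDKN1A were 4552 ± 1215 (SD, n = 3) in controls and 2799 ± 1084 (SD, n = 8) in infused livers. The fitted log2 difference of infused livers from controls was -0.71 (SE 0.39, 95% interval -1.55 to 0.13, adjusted p = 1), and the exact two-sided permutation test gave p = 0.0727. It was -0.56 (SE 0.46) for the arterial and -0.86 (SE 0.46) for the portal route, and the difference between the routes had a 95% interval from -0.62 to 1.21. Without portal 1 and portal 4 the estimate for all infused livers was -0.48, and it was again -0.48 without the 4 libraries with the most genes at 0. It was -0.53 without control 2 alone and -0.17 without control 2, arterial 1, portal 1 and portal 4, control 2 being the highest control. Against baseline, the log2 difference of the controls had a 95% interval from -1.10 to 1.26.

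MDM2, at 5:33105717-33137602, is the ubiquitin ligase that p53 induces and that in turn marks p53 for degradation. Its normalized count was 879 and 1274 at baseline, against 1112, 443 and 554 for controls. After arterial infusion it was 851, 838, 1000.2 and 649.7, and after portal infusion 266, 1196, 1188 and 640.4. The portal group thus held the lowest value of the 13 livers as well as 2 of their 3 highest, and the 4 arterial livers were the most alike, with a mean of 835 ± 144 (SD, n = 4). No difference exceeded its standard error, and the 95% interval of the log2 difference ran from -1.87 to 0.69 for controls against baseline and from -0.76 to 1.18 for infused livers against controls.

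GADD45A (6:144940702-144944089) and GADD45B (2:76107928-76111458) encode small stress proteins that act in cell cycle checkpoints and in signalling to the p38 and JNK kinases. GADD45A, the p53-responsive one, stood at 489.8 and 1268 at baseline and at 2387, 799 and 778 in controls. It reached 3968 in arterial 2 and 3934 in portal 2, while the other arterial livers were at 179, 1158 and 846 and the other portal livers at 347, 1162 and 413. Each group at 6 h therefore held 1 liver well above the rest, namely control 1, arterial 2 and portal 2. GADD45A varied most of the 10 genes, 22.1-fold from arterial 1 to arterial 2, and the SD of its log2 values over the 11 livers at 6 h was 1.41, against a median of 0.59 for 3421 genes of similar mean count.

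For GADD45A the 95% interval of the log2 difference between controls and baseline spanned -1.81 to 3.05, so that a change in either direction was within the spread between livers. GADD45B was at 1324 and 1886 at baseline, below all 3 controls at 1942, 3106 and 2746. The arterial livers stood at 672, 4222, 5350.0 and 2906 and the portal livers at 2017, 2645, 4078 and 1027, so that arterial 1 and portal 4 were below the baseline range and the other 6 infused livers above it. Over all livers at 6 h the mean was 2792 ± 1389.6 (SD, n = 11) against 1605 ± 397 (SD, n = 2) at baseline, a fitted log2 difference of 0.77 (SE 0.63, adjusted p = 0.879), and the exact permutation test gave p = 0.385. Without control 2, arterial 1, portal 1 and portal 4 that difference was 1.02. It did not reach the threshold under any of the alternatives, the lowest adjusted p being 0.136.

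**Figure D2:**
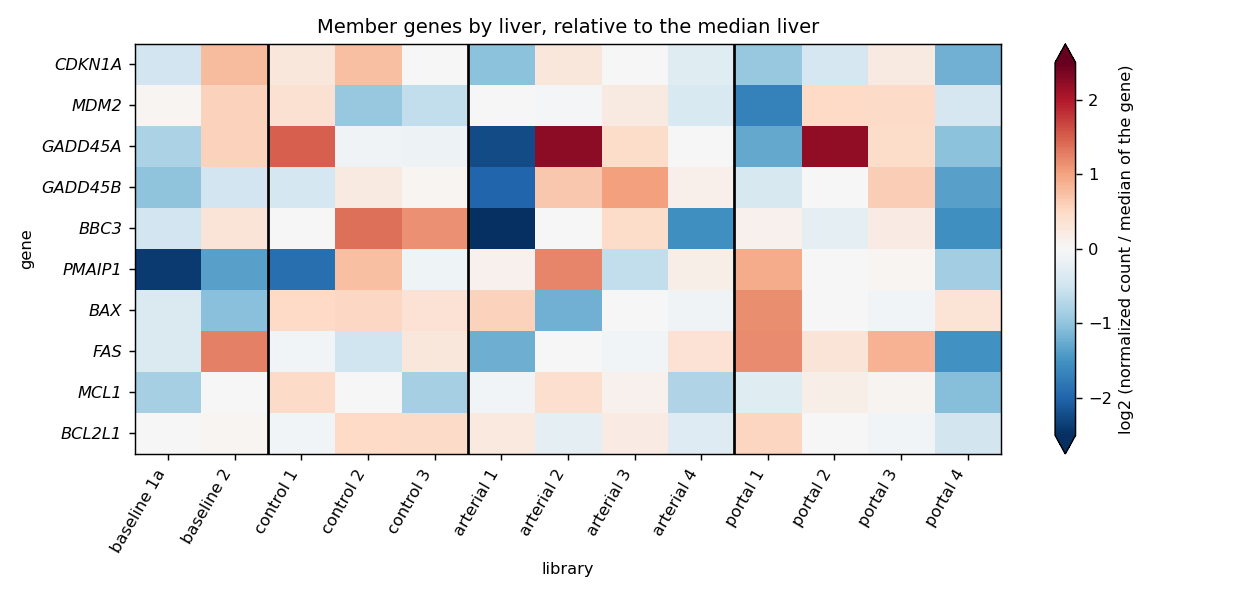
Colour gives the log2 ratio of each gene's normalized count in a liver to its median over the 13 livers (rows: genes; columns: libraries in 4 groups divided by black lines; colours saturate at the ends of the bar). The darkest red cells are GADD45A in arterial 2 and portal 2, the darkest blue BBC3 in arterial 1 and PMAIP1 in baseline 1a, and BCL2L1 is pale throughout.

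BBC3 (6:53037103-53046902) encodes PUMA and PMAIP1 (1:161184458-161188138) encodes NOXA, BH3-only proteins that carry the p53 signal to mitochondria. BBC3 was at 63.3 and 109.7 at baseline, and among controls at 87.0, 229 and 195, so that control 2 and control 3 were above every other liver of the series. Arterial livers were at 12.5, 88.2, 121 and 30.4 and portal livers at 95.7, 74.7, 102 and 30.7. The group means were 171 ± 74.3 (SD, n = 3) in controls and 69.4 ± 39.8 (SD, n = 8) in infused livers, with control 1 inside the range of the infused group.

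The fitted log2 difference of BBC3 in infused livers from controls was -1.29 (SE 0.62, 95% interval -2.62 to 0.03), edgeR's test giving p = 0.0546 unadjusted and 1 adjusted, and the exact permutation test p = 0.097. By route it was -1.41 (SE 0.73) after arterial and -1.18 (SE 0.73) after portal infusion. It was -1.15 without portal 1 and portal 4, -1.04 without the 4 libraries with the most genes at 0, -1.07 without control 2 alone, and -0.73 without control 2, arterial 1, portal 1 and portal 4. Against baseline the controls were higher by 0.96 (SE 0.91), which the spread between livers does not resolve. No infused group was free of overlap with the controls in any of the 10 genes, whereas such separation was found in 0.564% of all genes for infused livers together, 3.19% for the arterial and 3.72% for the portal route. Arterial and portal livers overlapped in all 10 genes as well, against 1.41% of genes in which they did not.

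Beside the lower CDKN1A and BBC3 values of the infused livers, 7 of 8 macrophage markers and 6 of 7 stellate and stromal markers were also lower by estimate, 4 and 2 of them with an unadjusted p under 0.05 and none past the adjusted threshold. Lower estimates were not limited to these types. They were found for 5 of 6 neutrophil, 5 of 6 endothelial, 5 of 8 lymphocyte, 3 of 5 cholangiocyte, 2 of 3 erythroid and 4 of 8 hepatocyte markers. Of these, 1 endothelial marker had an unadjusted p under 0.05 in edgeR's test. Summed macrophage markers were between 53223 and 124682 in controls and between 38966 and 46564 in infused livers, none of these markers being at 0. At baseline the sums were 45763 and 33484. CD14 alone held 77782 of the 124682 in control 2. The stromal sums were between 8074 and 37654 in controls and between 3414 and 28684 in infused livers, with LUM at 0 in arterial 1 and portal 1 and RGS5 at 0 in portal 1. The part of cell types in the differences of CDKN1A and BBC3 was not tested. Whether reads from the human cells themselves were counted on pig genes in the infused livers was not tested either.

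PMAIP1 gave the largest difference from baseline among the 10 genes. It was at 21.6 and 44.3 in the baseline livers, and at 30.9, 193 and 106 in the controls. The arterial livers were at 123, 266, 74.6 and 127 and the portal livers at 216, 114, 117 and 62.6. All 8 infused livers and 2 of the 3 controls were thus above both baseline livers, and control 1 lay between them. Over the 11 livers at 6 h the mean was 130.1 ± 69.6 (SD) against 33.0 ± 16.1 (SD, n = 2) at baseline.

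The log2 difference of PMAIP1 between all livers at 6 h and baseline was 1.92 (SE 0.78, 95% interval 0.26 to 3.58), or 3.78-fold. With edgeR's quasi-likelihood test p was 0.0263 before and 0.86 after adjustment. The exact two-sided permutation test gave p = 0.0256, where 0.0128 is the smallest value that 2 against 11 livers allow. The estimate remained positive in all alternatives, between 1.49 without baseline 1a and 2.47 without baseline 2, and was 1.73 without control 2, arterial 1, portal 1 and portal 4. For the controls alone it was 1.70 (SE 0.84, unadjusted p = 0.0619), and without control 2 it was 1.09. These are low counts, as the baseline values show, and both baseline livers weigh heavily on the comparison.

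BAX, at 6:54222341-54228150, encodes the protein that forms pores in the mitochondrial outer membrane. It was at 259.9 and 162 at baseline, and among controls at 475, 479.8 and 430.0, the narrowest group of the series for this gene. After arterial infusion the values were 502, 146, 335 and 314, and after portal infusion 749, 332, 320.0 and 422. Arterial 2 was below both baseline livers and the other 10 livers at 6 h were above them. BAX and GADD45B were the 2 genes of the 10 whose controls did not overlap with baseline, a pattern found in 31.1% of all genes tested, and no gene of the 10 separated all livers at 6 h from baseline, against 7.27% of all genes.

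Group means of BAX were 461 ± 27.4 (SD, n = 3) for controls and 211 ± 68.9 (SD, n = 2) for baseline. Controls exceeded baseline by a log2 difference of 1.12 (SE 0.54, 95% interval -0.04 to 2.27), or 2.17-fold, with an unadjusted p of 0.057 and an adjusted p of 0.978. The exact permutation test gave p = 0.1, the smallest value that 2 against 3 livers allow. For all livers at 6 h the log2 difference was 0.92 (SE 0.47, adjusted p = 0.86, exact permutation p = 0.0769), and 0.70 without control 2, arterial 1, portal 1 and portal 4. Arterial livers were lower than controls by estimate at -0.52 (SE 0.43) and lower than portal livers at -0.44 (SE 0.40). The last value was -0.06 without portal 1 and portal 4. With 1 library left out it ran from -0.73 without arterial 1 to -0.15 without portal 1.

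Most markers of blood-borne cells also had higher estimates at 6 h than at baseline, with livers that overlapped. Of the neutrophil markers 5 of the 6 tested were higher by estimate, 2 with an unadjusted p under 0.05, and their sum was between 1185 and 1317 at baseline and between 791 and 12520.4 at 6 h, with arterial 3 and portal 3 below both baseline livers. All 8 lymphocyte markers were higher by estimate, 2 with an unadjusted p under 0.05, and their sum was between 537 and 602 at baseline and between 375 and 2661 at 6 h, with control 1 below both baseline livers and CD2 at 0 in portal 1. None passed the adjusted threshold, and their part in the PMAIP1, BAX and GADD45B values was not tested. The highest neutrophil sum, 12520.4, was in control 2, which for PMAIP1 was the highest control, and the lowest, 791, in arterial 3, where PMAIP1 was above both baseline livers at 74.6. PMAIP1 was highest of all in arterial 2, at 266, where the neutrophil sum was 1528. In arterial 1 and arterial 4 the sums were 9418 and 7046, and PMAIP1 was at 123 and 127.

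FAS (14:100927305-100954781) encodes the death receptor of the extrinsic route. Its count was 104 and 322 in the baseline livers, and controls had 127, 94.6 and 163. Arterial livers were at 57.1, 134, 127 and 173 and portal livers at 305, 168, 246 and 46.6. Baseline 2 held the highest value and portal 4 the lowest, and the 2 baseline livers differed 3.09-fold from each other, which left a 95% interval from -2.29 to 0.87 for the log2 difference of controls from baseline. Arterial livers were lower than portal livers by estimate (log2 difference -0.61, SE 0.58, adjusted p = 1 in edgeR's test), with overlapping groups.

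**Figure D3:**
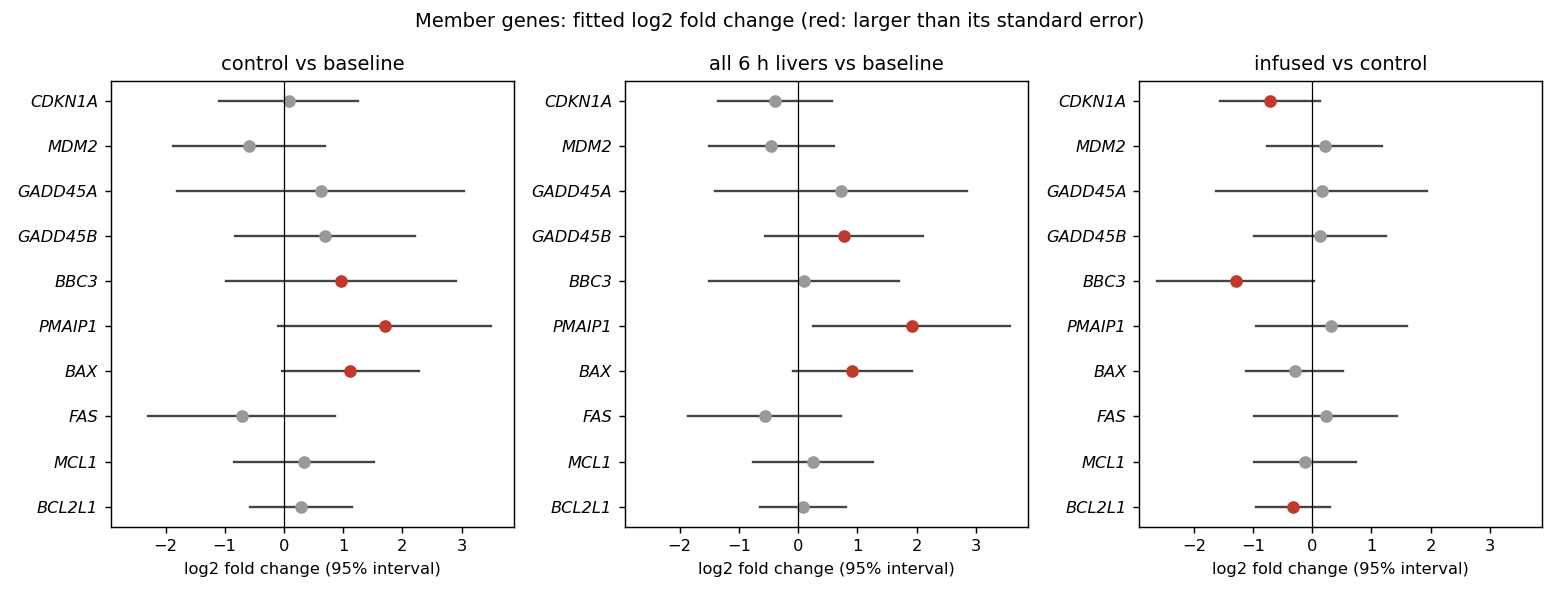
Fitted log2 fold change (x axis; points, with bars giving the 95% interval) of the 10 genes (y axis) for ischemic controls against baseline, all 11 livers at 6 h against baseline, and the 8 infused livers against controls. Red points are larger than their standard error, and only the interval of PMAIP1 for all livers at 6 h, 0.26 to 3.58, leaves out 0.

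MCL1 and BCL2L1 encode protective members of the BCL2 family. MCL1 (4:98562092-98567014), a short-lived protein that hepatocytes depend on for survival, was at 14080.4 and 25227 at baseline, with 34732, 24892 and 14043 for controls. Arterial livers were at 23694, 33098, 26860.2 and 14839 and portal livers at 20215, 27619, 26176 and 11832. The groups overlapped, control 1 and arterial 2 being the highest livers and portal 4 the lowest. The group means, lowest before ischemia with 19654 ± 7882 (SD, n = 2) and highest after arterial infusion with 24623 ± 7603 (SD, n = 4), differed by less than the SD of any group. The 95% interval of the log2 difference was -0.85 to 1.51 for controls against baseline and -0.98 to 0.75 for infused livers against controls.

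BCL2L1 (17:35366139-35415798), whose main product is BCL-xL, was the steadiest of the 10 genes. It was at 514 and 533 at baseline, at 491, 730.2 and 714 in the controls, at 609, 434, 596 and 409.7 after arterial and at 751, 516, 489 and 377 after portal infusion. From portal 4 to portal 1 this is a range of 1.99-fold, and the SD of its log2 values over the 11 livers at 6 h was 0.35, against a median of 0.62 for 4523 genes of similar mean count. The log2 difference of all livers at 6 h from baseline was bounded between -0.65 and 0.80, the narrowest interval of the 10 genes in that comparison. Infused livers were lower than controls by estimate (log2 difference -0.32, SE 0.29, exact permutation p = 0.212). The RefSeq annotation places 1 long non-coding RNA, LOC106506650, over BCL2L1, and since the libraries do not keep the strand, reads from both cannot be told apart.

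The ratio of BAX to BCL2L1 reads within a library does not depend on the size factor. It was 0.506 and 0.305 at baseline, and 0.966, 0.657 and 0.602 for controls, so that all controls were above baseline. Controls also lay free of overlap with baseline in 31.1% of all genes tested, BAX included, and no such share was computed for ratios. Arterial livers had 0.826, 0.336, 0.562 and 0.767 and portal livers 0.997, 0.645, 0.655 and 1.12, and arterial 2 was the 1 liver at 6 h inside the baseline range. The mean ratio was 0.405 ± 0.142 (SD, n = 2) before ischemia, 0.742 ± 0.196 (SD, n = 3) in controls, 0.623 ± 0.222 (SD, n = 4) after arterial and 0.854 ± 0.241 (SD, n = 4) after portal infusion. PMAIP1 reads per 100 MCL1 reads, the pair in which NOXA is the partner of MCL1, were 0.153 and 0.176 at baseline, and of the livers at 6 h control 1 was lower, at 0.0888, and the other 10 were higher, from 0.278 in arterial 3 to 1.07 in portal 1. BAX reads per 100 MCL1 reads did not divide the livers in this way. They were 1.85 and 0.644 at baseline, 1.37, 1.93 and 3.06 in controls, 2.12, 0.440, 1.25 and 2.12 after arterial and 3.70, 1.20, 1.22 and 3.57 after portal infusion, so that 6 livers at 6 h were above the baseline range, 4 inside it and arterial 2 below it.

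**Figure D4:**
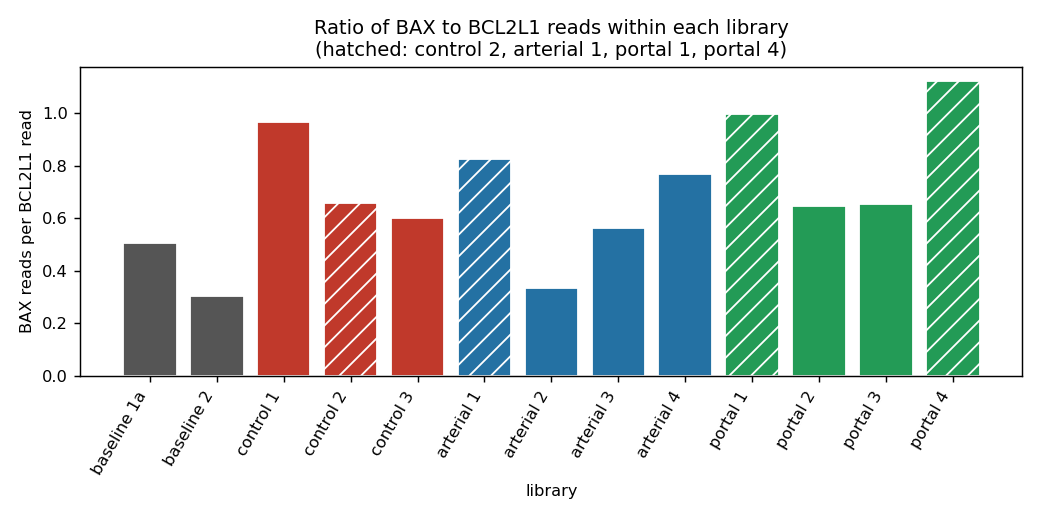
Reads of BAX per read of BCL2L1 (y axis, from 0) in each of the 13 libraries (x axis), coloured by group, with control 2, arterial 1, portal 1 and portal 4 hatched. The ratio is 0.506 and 0.305 at baseline, and of the livers at 6 h only arterial 2 (0.336) is not above both.

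The 10 genes did not move as 1 block across the 11 livers at 6 h. Correlations of log2 values, given as a description over libraries that share 3 treatments and differ in quality, were highest for CDKN1A with GADD45B (Pearson's r = 0.73), CDKN1A with BBC3 (0.73) and GADD45B with BBC3 (0.72). BAX had a positive r with BCL2L1 alone (0.585), an r near 0 with FAS (-0.01) and BBC3 (-0.03), and its most negative values with GADD45A (-0.67), MDM2 (-0.53) and GADD45B (-0.52). MDM2 and CDKN1A, both classical p53 targets, had an r of 0.23. Portal 4 held the lowest value of CDKN1A, FAS, MCL1 and BCL2L1, arterial 1 that of GADD45A, GADD45B and BBC3, and portal 1 that of MDM2 together with the highest of BAX and BCL2L1. These 3 livers had many genes at 0, and their part in the correlations was not tested.

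Among 10176 genes with a symbol and a mean of at least 50 normalized counts, the pattern most like that of CDKN1A over the 13 libraries was that of ICAM1 (r = 0.87, and 0.82 without portal 4 and arterial 1), an endothelial and leukocyte adhesion molecule, followed by ART4, NR1D1 and RGS18 (0.85, 0.85 and 0.84). MDM2 was most like TMED10 (r = 0.97, and 0.90 without portal 1 and control 2), a cargo receptor of the early secretory pathway, then TSNAX, CUL4B and DUS4L (0.96, 0.96 and 0.96). FAS was most like RAB27A (0.87, and 0.73 without portal 4 and baseline 2), then FAR1, KCNQ5 and BNIP5 (0.86, 0.85 and 0.84). For MCL1 the closest gene was MED20 (0.91, and 0.91 without portal 4 and control 3), then BUD23, BBS5 and the immediate early gene IER2 (0.89, 0.88 and 0.87).

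The wider pathway was read from lists of other genes, in the comparison of all livers at 6 h with baseline, where the median log2 difference of all genes tested was -0.01. Other p53 targets (22 tested) had a median of -0.22 with 8 higher and 14 lower, and p53 with its regulators (15 tested) a median of -0.06 with 5 higher and 10 lower. Other BCL2 family genes (12 tested) divided 6 and 6 with a median of 0.01. Caspases and the apoptosome (19 tested) had 8 higher and 11 lower with a median of -0.09, death receptor signalling (14 tested) 9 higher and 5 lower with a median of 0.32, and CDK inhibitors and GADD45 relatives (8 tested) 6 higher and 2 lower with a median of 0.23. None of these genes passed the adjusted threshold, and 3 of the 90, namely CDKN1C, TNFAIP3 and GADD45GIP1, were under 0.05 before adjustment, as were 4.78% of all genes. The members themselves had medians of 0.17 for the arrest and feedback genes, 0.51 for the 4 that promote apoptosis and 0.16 for the 2 that restrain it.

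In infused livers against controls, where the median of all genes was -0.02, other p53 targets had 7 genes higher and 15 lower (median -0.21), p53 and its regulators 7 and 8 (-0.01), other BCL2 family genes 5 and 7 (-0.22), death receptor signalling 5 and 9 (-0.14) and CDK inhibitors and GADD45 relatives 4 and 4 (-0.01). Caspases and the apoptosome had 14 genes higher and 5 lower (0.19), with an unadjusted p under 0.05 for none of them. Of the 90 genes 2 had such a p, against 2.14% of all genes, and both were singled out after their values were seen. They were TNF, the cytokine of the death receptor list, and GDF15, a secreted stress cytokine among the p53 targets. The log2 difference of TNF was -5.67 (SE 1.10, unadjusted p = 0.000122, adjusted p = 0.823 in edgeR's test), and it turned to 0.71 without control 2, the 1 liver in which TNF was high. The normalized count of GDF15 was 2209, 1791 and 648 in controls, 153, 1666, 1222 and 244 after arterial and 356, 677, 289 and 469.9 after portal infusion, a log2 difference of -1.37 (SE 0.60, unadjusted p = 0.0375, adjusted p = 1 in edgeR's test) with overlapping groups, and between -0.97 and -1.75 with 1 library left out. At baseline it was 592 and 1729, values that controls and infused livers enclosed.

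**Figure D5:**
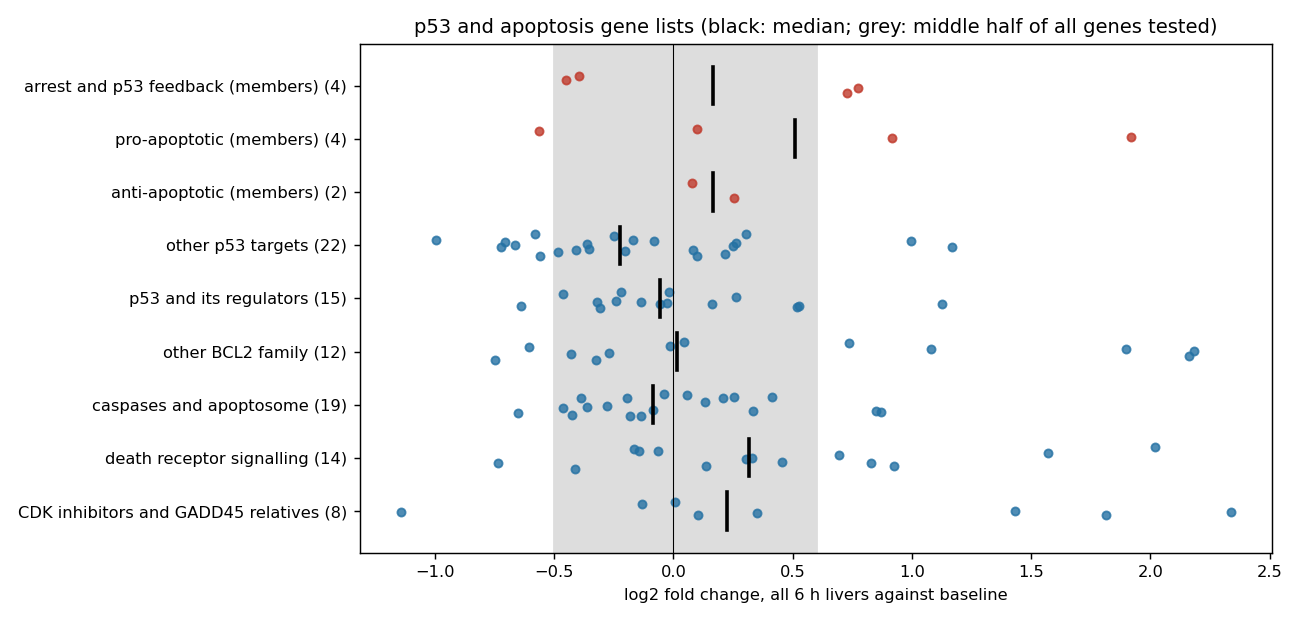
Log2 fold change of all 11 livers at 6 h against baseline (x axis) for each gene of the member groups (red) and of the wider p53 and apoptosis lists (blue), by list (y axis, number of genes tested in brackets), with black bars at list medians and a grey band over the central 50% of all genes tested. List medians lie between -0.22 for other p53 targets and 0.51 for the pro-apoptotic members, all inside the grey band.

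CDKN1C, which encodes the p57 inhibitor of cyclin-dependent kinases and belongs to the same family as CDKN1A, was the gene of these lists furthest from baseline. It was at 20.1 and 34.8 at baseline, at 82.3, 417 and 138 in the controls, at 133, 149, 167 and 74.4 after arterial and at 122, 57.9, 76.2 and 155 after portal infusion. All 11 livers at 6 h were above both baseline livers, as in 3.3% of all genes tested. The log2 difference was 2.34 (SE 0.73, unadjusted p = 0.00593, adjusted p = 0.86 in edgeR's test), and the exact permutation test gave 0.0128, the smallest value possible. CDKN1C and the list genes below were named for their estimates in this comparison, so their p-values are not independent of that choice. For CDKN1A the 95% interval of the log2 difference in the same comparison ran from -1.36 to 0.57. The difference between these 2 genes was not tested.

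TNFAIP3, the A20 deubiquitinase that limits TNF signalling, was at 166 and 140.3 at baseline and between 199.6 in arterial 3 and 1918 in portal 2 at 6 h (log2 difference 2.02, SE 0.89, unadjusted p = 0.0386). GADD45GIP1, a mitochondrial ribosomal protein that binds GADD45 proteins, was at 106 and 103 at baseline and between 129.9 in arterial 4 and 891 in control 2 at 6 h (1.82, SE 0.78, unadjusted p = 0.0348). Its 4 highest livers were control 2, portal 4, arterial 1 and portal 1, and these were also the 4 highest for BAD, BNIP3 and FADD. BAD, a BH3-only protein controlled by phosphorylation, was between 307 and 363 in these 4 livers and between 33.1 and 149 in the other 9. BNIP3, a hypoxia-responsive mitophagy receptor, was between 7287 and 20832 in the 4 and between 1603 and 4725 in the other 9. FADD, the adaptor of FAS, was between 1956 and 2613 in the 4 and between 537 and 1137 in the others. Over all livers at 6 h the log2 differences from baseline were 2.16 (SE 1.02) for BAD, 1.90 (SE 0.91) for BNIP3 and 0.92 (SE 0.58) for FADD, and edgeR's adjusted p was 0.86 for each. Without these 4 livers the differences were 0.94 for BAD, 0.77 for BNIP3, 0.31 for FADD and 0.91 for GADD45GIP1, against 1.87 for CDKN1C and 2.05 for TNFAIP3. Leaving out the highest livers of BAD, BNIP3, FADD and GADD45GIP1 lowers their estimates by construction. The contrast with CDKN1C and TNFAIP3 is therefore a description and not a test.

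Of the other list genes with the largest estimates, 9 besides TNF were higher than baseline at 6 h by more than their standard error without a p under 0.05. BOK, a BAX relative, was at 2.18 on the log2 scale and at 1.25 without control 2, arterial 1, portal 1 and portal 4, CDKN2D at 1.43, the checkpoint kinase CHEK2 at 1.13, the protective BCL2A1 at 1.08, FDXR at 1.00, the survivin gene BIRC5 at 0.87 and BIRC3 at 0.85. TRAF2 was at 0.83 and RPL11, a ribosomal protein that can bind MDM2, at 0.52. POLH (-0.67), CASP10 (-0.65) and SIRT1 (-0.64) were lower by estimate. PPM1D, BTG1, PPP1R13L, HTRA2 and GADD45G stayed within 1 standard error of 0. The estimates of CHEK2, FDXR, BIRC5 and CDKN2D moved by over 1.5-fold when 1 baseline liver was left out, to between 0.64 and 1.80 for CHEK2, 0.53 and 1.62 for FDXR, 0.35 and 1.62 for BIRC5, and 0.93 and 2.14 for CDKN2D. TNF was at 4887 in control 2 and between 5.24 and 53.9 in the other 12 livers, and its log2 difference from baseline was 1.57 (SE 1.47) with control 2 and -0.55 without it.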

How the data were processed

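RNA was measured in the 13 pig liver libraries described above. The authors removed low-quality reads, aligned the others to Sscrofa11.1 by HISAT2 and counted them per gene with FeatureCounts and Ensembl annotation, and the deposited values are raw counts, neither normalized nor pooled. Libraries were non-directional. Tool versions and the treatment of multi-mapped reads are not given in the sources used here. The sample labels gave the groups and replicate numbers, and 0 columns were left without a sample. The 10 genes and all gene lists were chosen with earlier results of these data known.

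All genes were fitted with edgeR 4.0.16 in R 4.3.3 (filterByExpr, TMM, quasi-likelihood test, 4 groups in 1 fit, Benjamini-Hochberg adjustment over 16481 genes, threshold 0.05). Standard errors are the absolute log2 difference divided by the square root of F. A log2 difference is reported where it exceeds its standard error, otherwise its 95% interval or the group values. Normalized counts use DESeq2 1.42.0 size factors. Exact two-sided permutation tests used log2(normalized count + 1). They treat libraries as exchangeable, which is not established against baseline, where libraries may share animals with those at 6 h. P-values measure the spread between libraries. Counts are reads and not molecules, and 0 reads are compatible with up to 3. No 2 libraries were copies, the smallest chi-square per gene being 78.0. The fit was checked on simulated data. Of the wider lists, the 4 genes per list with the largest absolute log2 difference of all livers at 6 h from baseline and a mean of at least 50 are named. Genes without a row under their symbol, TNFRSF10B, EDA2R, TRIAP1, BAK1, BIK, BCL2L12 and TNFSF10 among them, are not analysed here.

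Alternatives were RLE and upper quartile normalization, 2 other filters, DESeq2, fits of only the groups compared, limma 3.58.1 voom with sample quality weights, the replicate number as a block, and libraries left out.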

Additional observations from a re-analysis of the deposited data

How the results depend on the processing

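The number of genes called was 0 in all 6 comparisons, also with RLE or upper quartile normalization, with at least 10 counts in every library, with only the groups compared in edgeR, and with each library left out in turn (range 0 to 0 in every comparison). Without a filter on low counts edgeR called 30 genes for controls against baseline, 28 for all livers at 6 h against baseline, 19 for infused livers, 11 for arterial and 14 for portal infusion against controls, and 5 for arterial against portal infusion. DESeq2 over all 13 libraries called 5, 14, 1, 0, 4 and 1 in the same order, and DESeq2 over the groups compared called 166 for controls against baseline and 3 for portal infusion against controls. Voom with sample quality weights called 111 for all livers at 6 h against baseline. With control 2, arterial 1, portal 1 and portal 4 left out, 1 gene was called for infused livers and 1 for arterial infusion against controls, and 0 in every comparison with arterial 2 in place of control 2. None of the 10 genes passed an adjusted p of 0.05 under any of the 25 alternatives, the lowest being 0.114 (PMAIP1, voom, all livers at 6 h against baseline). Of 60 estimates, 17 exceeded their standard error and 0 of these changed sign, while 33 of the other 43 did in at least 1 alternative. All 43 are given as intervals or group values because they did not exceed their standard error. The 17 were picked for their size in these data, and the alternatives reuse the same libraries. Their constant sign is therefore partly set by that choice. TNF was at -0.52 with voom, and leaving out 1 library gave -0.55 to 1.81, the lowest without control 2, and -0.68 without the 4 libraries. With the replicate number as a block 0 genes were called. Deviations of same-numbered libraries from their group means had r from -0.42 to 0.43 (16 pairs, 5 over 0.1). With 2 baseline livers these deviations mirror each other, so they cannot tell whether baseline and 6 h libraries came from the same animals. With 2 baseline livers a common coefficient of variation of 0.73 limits what can be resolved, and genes with under about 100 reads, as PMAIP1 and BBC3 are in several livers, also carry counting error.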

Other observations

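Reads of CDKN1A per read of MDM2 within a library, a ratio of a p53-induced inhibitor of the cell cycle to the p53-induced inhibitor of p53, were 2.87 and 4.77 in the baseline libraries, 3.85, 13.3 and 6.31 in controls 1 to 3, 2.01, 5.09, 3.53 and 4.34 in arterial livers 1 to 4 and 6.82, 2.18, 3.46 and 2.39 in portal livers 1 to 4. Control 2 was the highest of all 13, followed by portal 1 and control 3, and the groups overlapped. GADD45A reads per GADD45B read were highest in portal 2 (1.49), control 1 (1.23) and arterial 2 (0.940), the same 3 livers in which GADD45A itself was highest, and between 0.172 and 0.672 in the other 10 libraries, both baseline libraries included.

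Markers of other liver cells are given as values. Compared with baseline, all 6 endothelial markers tested were lower by estimate at 6 h, 2 of 7 stellate and stromal markers were higher and 5 lower, all 5 cholangiocyte markers and all 3 erythroid markers tested were higher, and 3 of 8 hepatocyte markers were higher and 5 lower, with 0 of these genes past an adjusted or an unadjusted p of 0.05 in edgeR's test. The summed erythroid markers were highest in control 2 (29058), portal 1 (18156) and arterial 4 (13653) and between 997 and 5089 in the other 10 libraries.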
